A study of Capra hircus with 6 samples.

Results

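The 35 integrin and laminin genes described here are loci of the deposited table with 1 gene name of the pattern ITGA plus letters or digits, ITGB plus 1 digit, or LAMA, LAMB or LAMC plus 1 digit. They comprise 25 integrin and 10 laminin genes of 26938 loci, and were chosen by their names. Integrins are receptors of 1 α and 1 β subunit that hold cells to the matrix or to other cells, and laminins are trimers of an α, a β and a γ chain that build the basement membrane, the thin matrix sheet under epithelia and around vessels, muscle and nerve. In skin the basal keratinocytes are anchored by integrin α6β4 in hemidesmosomes to the epidermal laminin that holds the α3 and β3 chains, while leukocytes use β2 and β7 integrins to stick to vessel walls and to move into tissue. Vessel walls carry laminins with the α4 or α5 chain, and muscle fibres and nerves carry those with the α2 chain.

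RNA was sequenced from flank skin, taken with a biopsy punch, of 6 female Changthangi Pashmina goats aged 26 months, which the labels spell Chanthangi. They fell into 3 coat colours with 2 white, 2 brown and 2 black goats, and no treatment or genotype is given for any of them. These groups are those of the sample labels, while the design text of the series speaks of grey instead of brown goats and of 6 goats for each colour. Each gene has 1 FPKM per colour (mapped fragments, scaled by transcript length and by library), which the authors made from the 2 goats of that colour. FPKM is scaled by length, so levels of different genes can be set side by side. Neither values per goat nor errors were used here, and no difference between colours could be set against the spread between goats. All differences below are therefore descriptions without a test, and the number of fragments behind a value is unknown. A punch of whole skin mixes many cell types, and in such bulk samples fewer cells of a type and less RNA per cell cannot be told apart.

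Of the 35 members, 32 had a mean FPKM of at least 1 over the 3 colours, and no member was listed at 0. By their best known site they were separated into 8 epidermal, 7 leukocyte, 7 vessel and platelet, 8 muscle, nerve and dermal, and 5 widely shared or other genes, although many of them are made by more than 1 cell type. The names ITGAD and LAMB2 were not analysed here. Epidermal markers were high in every colour. KRT14, a keratin of basal keratinocytes, had 9000 FPKM in white skin against 12400 in brown and 7240 in black, and the epidermal members ITGA6, ITGB4 and LAMA3 were all above 4 FPKM in every colour. Of 6 skeletal muscle markers, 4 had a locus and none of these reached a mean of 1, so the members known from skeletal muscle were measured in skin almost without transcripts of that tissue.

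Ratios between colours were taken as log2((FPKM + 0.1)/(FPKM + 0.1)). Over the 13656 loci with a mean of at least 1, the median was 0.24 for white/black (white skin over black), -0.03 for brown/white and 0.20 for brown/black, and this median was subtracted to give the centred ratio. A gene counts as past 2-fold where the centred ratio is at least 1 in size. The shift towards white and brown grew with the span of a locus, which is its length from start to end with introns. Integrin and laminin genes are long, with a median span of 65690 bases for the 32 against 19098 for all loci, and 11 of the 32 span over 100 kb. At loci over 100 kb the median log2 FPKM ratio with nothing subtracted was 0.66 for white/black and 0.55 for brown/black, against 0.06 and 0.02 at loci of up to 3 kb. Span-matched ratios, centred on loci of like span, are therefore given beside the centred ones.

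**Figure D1:**
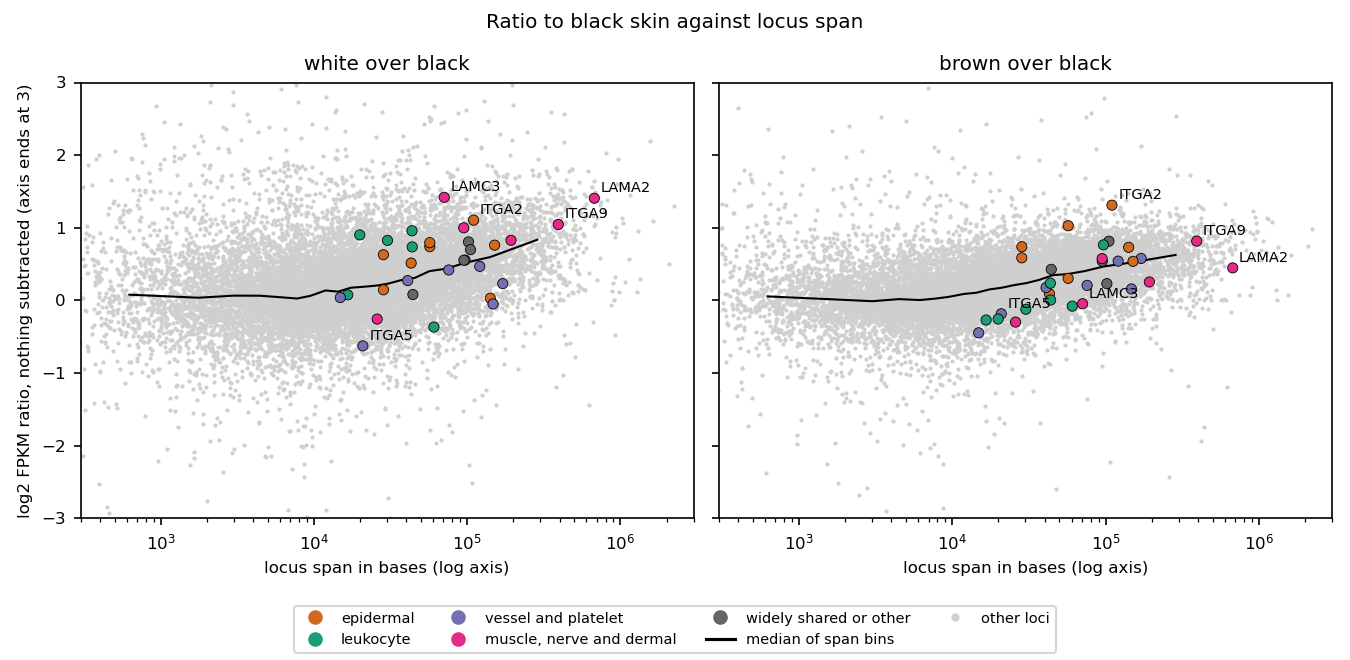
Log2 FPKM ratio of white/black (left) and brown/black (right) with nothing subtracted, against locus span in bases on a log axis. Grey points are other loci, coloured points the 32 members by group, and the black line joins the medians of 20 bins of span. 114 loci on the left and 96 on the right lie beyond the axis limit of 3. The line climbs at long loci, where LAMA2 and ITGA9 lie.

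Few members were past 2-fold between colours. Their highest FPKM was 1.69 times their lowest at the median, beside 1.44 times for all loci, with a range from 1.16 for LAMA4 to 2.79 for LAMC3, and 15 of the 32 (46.9%) stayed within 1.5-fold in all 3 comparisons of centred ratios, beside 63.9% of all loci. In white/black, 2 of 32 (6.25%) were past 2-fold upward, LAMA2 and LAMC3, beside 5.04% of all loci, and none was past it downward, beside 3.45%. In brown/white, none was past 2-fold upward, beside 2.42%, and ITGAX and LAMC3, or 6.25%, were past it downward, beside 3.90%. In brown/black, ITGA2 alone (3.12%) was past it upward, beside 1.65%, and none downward, beside 1.73%. These shares lie near those of all loci. By span-matched ratios, neither comparison with black held any member past 2-fold, while ITGAX and LAMC3 stayed past it in brown/white. The comparisons share the goats of a colour, and each colour enters 2 of the 3.

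At a lower limit of 1.5-fold, 9 members (28.1%) were higher in white skin and 2 in black, beside 14.2% and 11.7% of all loci. In brown/white, 2 were higher and 6 lower (18.8%), beside 8.50% and 10.5%. In brown/black, 4 were higher (12.5%) and 1 lower, beside 7.03% and 6.28%. These counts moved with the scale. With span-matched ratios, 5 were higher in white skin and 3 in black, where 11.8% and 9.90% of all loci were, and 2 were higher and none lower in brown than in black, where 5.15% and 5.28% were.

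By FPKM, 19 of the 32 were highest in white skin, 10 in brown and 3 in black, or 59.4%, 31.2% and 9.38%, beside 47.3%, 36.5% and 16.2% of all loci. The lowest FPKM fell in black for 23, in brown for 6 and in white for 3 (71.9%, 18.8% and 9.38%), beside 56.1%, 18.2% and 25.7%. After centring, black was below both other colours for 16 of 32 (50.0%), where 35.0% of all loci were, and with span-matched ratios for 9 (28.1%), where 32.4% were. White was above both for 16 (50.0%) after centring and for 13 (40.6%) span-matched, beside 37.2% and 38.2% of all loci. Black was above both for 6 (18.8%) and 9 (28.1%), beside 35.0% and 32.4%.

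**Figure D2:**
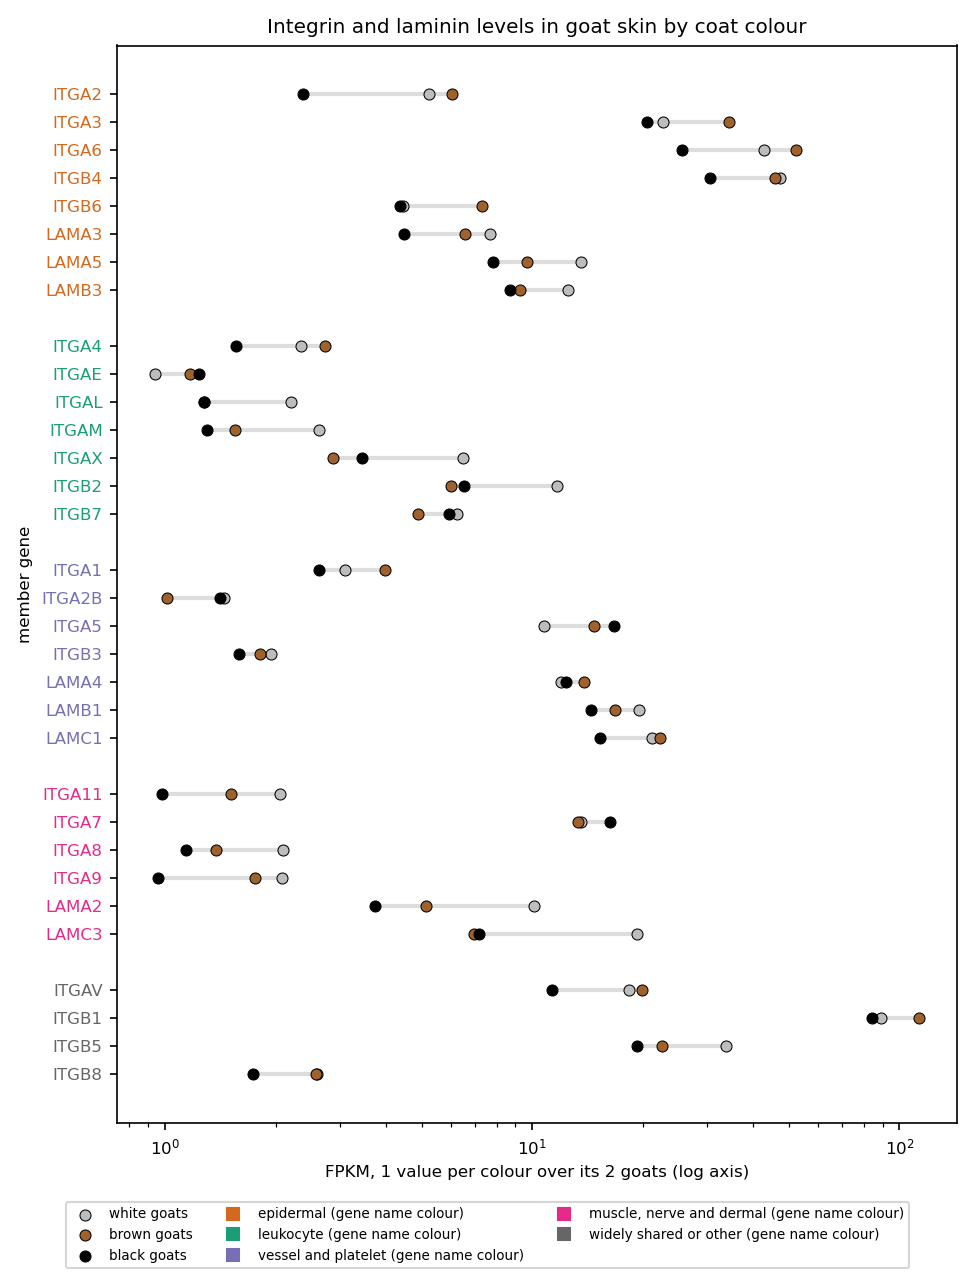
FPKM of the 32 members with a mean of at least 1, on a log axis, with 1 point per coat colour (white shown in grey, brown, black), each point over 2 goats and without an error. Gene names are coloured by group, and the grey bar spans the 3 colours. ITGB1 is highest with 84.3 to 113 FPKM, the 8 epidermal members all have their lowest point in black, and LAMC3 and ITGAX stand out in white.

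By FPKM the epidermal members were higher in white and in brown than in black skin, with mostly small ratios. All 8 had their lowest FPKM in black, as did 56.1% of all loci, and 4 had their highest in brown and 4 in white. Black was below both other colours for 5 of the 8 after centring and for 4 span-matched, beside 35.0% and 32.4% of all loci. Their median centred log2 ratio was 0.44 for white/black, 0.45 for brown/black and 0.11 for brown/white, and the span-matched medians were 0.27, 0.28 and 0.09, while the brown/white median was -0.14 with 13 reference genes as the zero point and -0.04 at a mean FPKM of at least 5. After centring, 6 of the 8 were above 0 in white/black and 7 in brown/black. The medians over all loci are 0 by construction. By centred ratios, basal epidermis markers lay in the same direction in both comparisons with black. Span-matched, their medians were 0.32 for white/black and 0.64 for brown/black, with TP63 alone below 0, at -0.01 and -0.20. Of the 5, 4 had a locus, among them COL17A1, and none of the 4 was at 0. Their summed FPKM, most of it from KRT5 and KRT14, was 17400 in white, 22000 in brown and 13400 in black. In brown/white their median centred ratio was -0.06, with KRT5 (0.25) and KRT14 (0.50) above 0, and TP63 (-0.37) and COL17A1 (-0.44) below. The part of these markers in the ratios of the members was not tested.
ITGA6 and ITGB4 code for the subunits of the hemidesmosome integrin. ITGA6 had 42.8 FPKM in white skin against 52.3 in brown and 25.6 in black, a centred log2 ratio to black of 0.50 and 0.83. ITGB4 had 47.2, 45.8 and 30.5 FPKM, with centred ratios to black of 0.39 and 0.38. Black skin was thus low in both subunits, and they were made at nearly equal levels per length, with ITGA6 at 0.906 of ITGB4 in white, 1.14 in brown and 0.839 in black. ITGA6 lies on chromosome 2 from 23427592 to 23484599 and ITGB4 on chromosome 19 from 54692959 to 54721350, in the coordinates of the deposited table, whose genome build is not given in the sources used here. ITGA6 made up 30.6% of the summed FPKM of the 17 α subunits in white, 32.6% in brown and 23.3% in black.
ITGA2 codes for the α subunit of a collagen receptor of keratinocytes and platelets and was the member with the largest ratio of brown/black. Its FPKM was 5.23 in white skin, 6.06 in brown and 2.38 in black. The centred log2 ratio to black was 0.86 for white and 1.11 for brown, and with span taken into account 0.59 and 0.85, which is under 2-fold. The locus spans 110025 bases on chromosome 20, from 25924402 to 26034426.
ITGA3, whose product binds epidermal laminins together with β1, had 22.7 FPKM in white skin against 34.3 in brown and 20.5 in black. ITGB6, an epithelial β subunit that with αV releases active TGF-β, had 4.46, 7.32 and 4.37. These were the members in which brown skin stood above white by over 1.5-fold, with centred log2 ratios of brown/white of 0.62 and 0.73. Span-matched, the ratios were 0.58 and 0.78, and ITGB6 alone was past 1.5-fold. White and black skin were close in both, and the centred ratios of white/black, -0.09 and -0.21, were of opposite sign to those of the other epidermal integrins.

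The α3 and β3 chains of the epidermal laminin were both highest in white skin. LAMA3 had 7.67 FPKM in white skin against 6.55 in brown and 4.49 in black. Its locus lies on chromosome 24 from 32834497 to 32985405. LAMB3 had 12.5, 9.29 and 8.72 FPKM. The level of LAMA3 per level of LAMB3 was 0.614 in white, 0.706 in brown and 0.515 in black. In white/black, the centred log2 ratio was 0.52 for LAMA3 and 0.27 for LAMB3, and span-matched it was 0.16 and 0.20. In brown/black it was 0.33 and -0.11, and span-matched 0.02 and -0.26. LAMA5 codes for the α5 chain of laminins in both epidermal and vessel basement membranes, which hair follicles need for their growth in mice. It had 13.6 FPKM in white skin against 9.67 in brown and 7.82 in black. Its centred log2 ratio was 0.55 for white/black, -0.46 for brown/white and 0.10 for brown/black, and span-matched 0.39, -0.45 and -0.06.
Of 11 other genes of hemidesmosomes and epidermal anchoring, 8 had a locus and 5 a mean FPKM of at least 1. COL17A1, a collagen that spans the keratinocyte membrane and binds integrin α6β4, was the exception among them, with 242 FPKM in white skin against 175 in brown and 96.3 in black. It was past 2-fold in white/black (centred log2 ratio 1.09, span-matched 1.13) and not in brown/black (0.66). CD151, a tetraspanin that binds laminin receptors, had 83.4, 86.6 and 84.3 FPKM, and PLEC, the plectin that links hemidesmosomes to keratin filaments, had 41.3, 40.4 and 33.0. The list's median centred ratio was 0.17 for white/black, 0.00 for brown/white and 0.09 for brown/black.

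**Figure D3:**
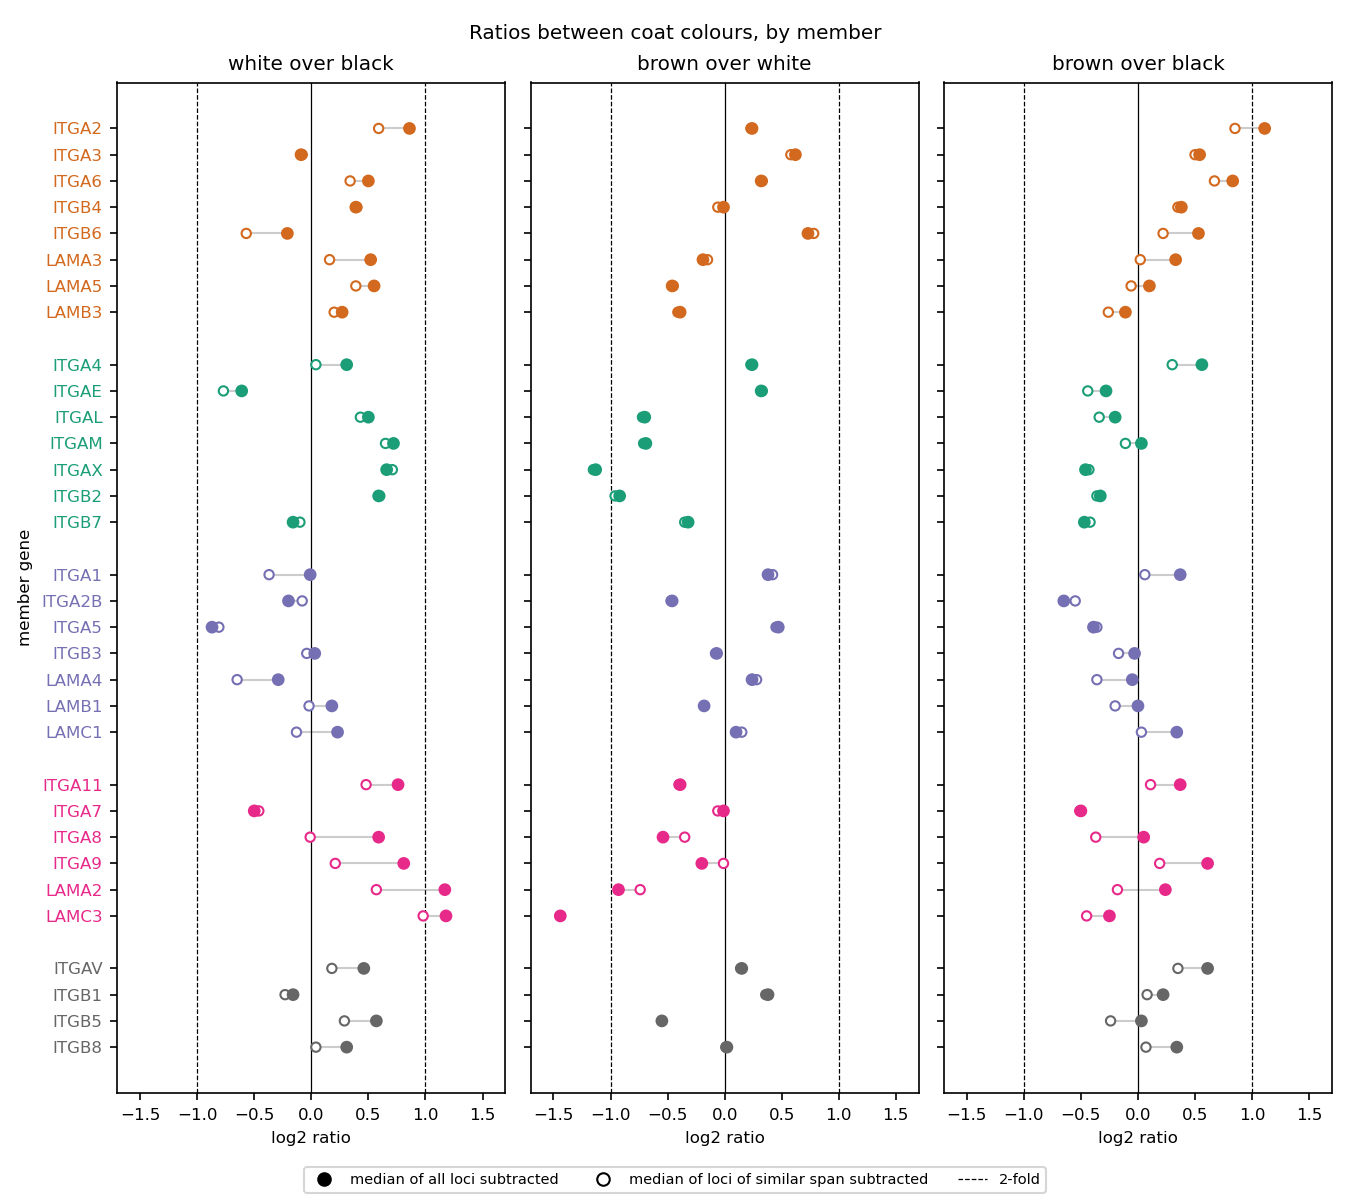
Log2 ratio of each member for white/black, brown/white and brown/black. Filled points have the median of all loci subtracted and open points that of loci of like span, the dashed lines mark 2-fold, and colours mark the groups as in the plot of levels. Filled points past 2-fold are LAMA2 and LAMC3 (left), ITGAX and LAMC3 (middle) and ITGA2 (right), and only those of the middle panel keep an open point past the line.

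Among the leukocyte members, the β2 integrins were highest in white skin. ITGB2, the shared β2 subunit, had 11.7 FPKM in white skin against 6.00 in brown and 6.54 in black. ITGAX, the α subunit of complement receptor p150,95 of macrophages and dendritic cells, had 6.50, 2.86 and 3.43. ITGAM, the α subunit of the Mac-1 receptor of neutrophils and macrophages, had 2.62, 1.55 and 1.30, and ITGAL, that of the lymphocyte receptor LFA-1, had 2.20, 1.28 and 1.28. In each of these 4 genes white was the high colour, and brown and black lay close together. Their centred log2 ratios of white/black ranged from 0.50 to 0.72 and those of brown/white from -1.13 to -0.69, and span-matched ratios gave the same directions. ITGAX alone passed 2-fold, in brown/white, at -1.13 (span-matched -1.15). Its locus lies on chromosome 25 from 27446250 to 27466154, and 15788 bases separate it from ITGAM. ITGAX and ITGAM are related genes, and the authors reported all positions of reads with several matches, so how reads were divided between them is not known.
The α partners had similar proportions to their β subunit in the 3 colours, although ITGAL and ITGAM were near the filter limit. Per length, ITGAL stood at 0.188 of ITGB2 in white, 0.214 in brown and 0.196 in black, ITGAM at 0.224, 0.258 and 0.198, and ITGAX at 0.557, 0.476 and 0.525. The summed FPKM of the 3 α partners was 11.3 in white skin, 5.69 in brown and 6.01 in black, about the level of ITGB2 in each colour.
The other 3 leukocyte members differed among themselves. ITGA4, whose product binds VCAM-1 on inflamed vessels, had 2.34 FPKM in white skin against 2.73 in brown and 1.56 in black. ITGB7, the β subunit of gut-homing and intraepithelial lymphocytes, had 6.24, 4.88 and 5.92. White was highest by FPKM with black close to it, and the log2 ratio of white/black was -0.16 centred and -0.10 span-matched. ITGAE, the partner of ITGB7 on intraepithelial T cells, had 0.942, 1.17 and 1.24. ITGAE was higher in black than in white skin (centred log2 ratio of white/black -0.61), although its level was among the lowest of the members. Over all 7 leukocyte members the median centred ratio was 0.50 for white/black, -0.69 for brown/white and -0.28 for brown/black. Span-matched, these medians were 0.43, -0.71 and -0.36.
Markers of leukocytes lay in the same direction as some of these values and against others. Of 6 general leukocyte markers all passed the filter, with a summed FPKM of 213 in white, 154 in brown and 182 in black, and the highest of them, LAPTM5, a lysosomal membrane protein of blood cells, had 89.6, 65.0 and 69.7. The median centred ratio of white/black of this list was 0.08, with single genes from -0.57 to 0.52. T cell markers, 6 of 8 of which passed, summed to 29.9, 16.6 and 23.4 FPKM, with CD3E, a chain of the T cell receptor complex, highest at 11.3, 6.70 and 8.13. The 4 of 7 macrophage and dendritic cell markers that passed summed to 56.9, 56.4 and 60.8 FPKM, with CSF1R, the receptor for a macrophage growth factor, highest at 24.0, 17.1 and 18.2. The 4 of 6 neutrophil markers that passed went the other way, with sums of 52.5 in white skin, 403 in brown and 1410 in black. Most of this came from S100A8 and S100A12, and the median centred log2 ratio of white/black was -3.26. CXCR2 differed less, with 6.31, 8.61 and 8.64 FPKM, and CSF3R was low, with 0.548, 0.826 and 2.17. MMP9, under the filter, had 0.903, 0.793 and 0.797 FPKM and was not higher in black. None of the markers that passed was at 0. FERMT3, the kindlin that activates integrins in blood cells, had 5.46, 5.81 and 6.29 FPKM, so it did not show the excess of ITGB2 in white skin. The part of these cell types in the values of the members was not tested.

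Vessel and platelet members had medians near 0 after centring. Their median centred log2 ratio was -0.01 for white/black, 0.10 for brown/white and -0.03 for brown/black. With reference genes as the zero point, the first and the second of these were 0.37 and -0.15. Span-matched, the medians were -0.13, 0.15 and -0.20. Black was above both other colours for 3 of the 7 after centring and for 5 span-matched, beside 35.0% and 32.4% of all loci. None of the 7 was past 2-fold. LAMA4, the laminin α chain of endothelial basement membranes, had 12 FPKM in white skin against 13.8 in brown and 12.4 in black. LAMB1 and LAMC1, the β1 and γ1 chains used in most laminins outside the epidermis, had 19.5, 16.8 and 14.5, and 21.2, 22.3 and 15.3 FPKM. By FPKM the α4 chain varied least of all members, while γ1 was lower in black, but span-matched the log2 ratio of white/black of LAMA4 was -0.65. The span-matched ratios of white/black were negative for all 7, from -0.81 to -0.02, so that the sign of LAMB1, LAMC1 and ITGB3 depended on the scale.
ITGA5, which with β1 forms the fibronectin receptor of endothelium and many other cells, was the member with the most negative ratio of white/black. It had 10.8 FPKM in white skin against 14.7 in brown and 16.7 in black, with a centred log2 ratio of white/black of -0.87 and a span-matched one of -0.81. It made up 7.73% of the summed FPKM of α subunits in white skin, 9.15% in brown and 15.2% in black. ITGA1, a collagen receptor subunit of vessel smooth muscle and capillaries, had 3.10, 3.97 and 2.63 FPKM. ITGA2B and ITGB3, the subunits of the platelet fibrinogen receptor, had 1.45, 1.01 and 1.41, and 1.94, 1.81 and 1.59, all near the filter limit.
Endothelial markers had medians near 0 as well. Of 10, 8 passed, with a summed FPKM of 107 in white, 93.7 in brown and 81.5 in black and median centred ratios of 0.11, -0.10 and -0.02 in the 3 comparisons. PECAM1, an adhesion protein of endothelial junctions, had 42.7, 42.3 and 32.8 FPKM. Of 6 platelet markers 3 had a locus and 1 of these passed, GP5, with 2.44 FPKM in white skin against 1.03 in brown and 1.44 in black, and TREML1 was listed at 0 in every colour.

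The muscle, nerve and dermal members held the largest centred ratios of white/black, those of LAMC3 and LAMA2. Of the 8, 6 had a mean FPKM of at least 1, and their median centred log2 ratio was 0.78 for white/black, -0.47 for brown/white and 0.15 for brown/black. Span-matched, it was 0.35, -0.38 and -0.27, so that the sign of brown/black depended on the scale. In white/black the leukocyte members had a higher span-matched median, 0.43.
LAMC3, the γ3 chain of laminins in basement membranes of skin, nerve and other tissues, had 19.3 FPKM in white skin against 6.93 in brown and 7.16 in black. White skin held 2.70 times the level of black, and brown 0.359 times that of white. The centred log2 ratio was 1.18 for white/black, -1.44 for brown/white and -0.25 for brown/black, and span-matched it was 0.98, -1.44 and -0.45. LAMC3 was thus under 2-fold in white/black once span was taken into account, and kept its ratio of brown/white. The locus lies on chromosome 11 from 99633408 to 99704179.
LAMA2, the α2 chain of muscle and nerve laminin, had 10.1 FPKM in white skin against 5.13 in brown and 3.74 in black. Its centred log2 ratio of white/black was 1.17, but it is the member with the longest locus, 675167 bases on chromosome 9 from 53821336 to 54496502, and span-matched the ratio was 0.57. For brown/white it was -0.93, and -0.74 span-matched.
Among the α subunits of this group white was again the high colour in 3 genes with low levels. ITGA11, a collagen receptor subunit of fibroblasts, had 2.06 FPKM in white skin against 1.51 in brown and 0.980 in black. ITGA9, a subunit that binds tenascin-C and other matrix proteins, had 2.08, 1.76 and 0.958. ITGA8, which in mice marks the arrector pili muscle and mesenchyme of the follicle, had 2.10, 1.38 and 1.14. Their centred log2 ratios of white/black were 0.76, 0.81 and 0.59, and span-matched 0.48, 0.21 and -0.01, so that little of the ratio was left in ITGA9 and ITGA8. ITGA7, the laminin receptor subunit of muscle, went the other way with 13.6, 13.3 and 16.3 FPKM.
Smooth muscle markers, of which 6 of 6 passed, had summed FPKM of 684 in white, 545 in brown and 647 in black, Schwann cell markers (5 of 6) 26.4, 34.8 and 24.7, and fibroblast markers (6 of 6) 2460, 2050 and 1560. None of those that passed was at 0. ACTA2, the smooth muscle actin, had 228, 149 and 184 FPKM, and MBP, a myelin protein, 13.2, 21.2 and 12.6, the highest of their lists. The fibroblast median ratio of white/black was 0.70 centred and 0.73 span-matched, beside 0.78 and 0.35 for these members, and single fibroblast genes ranged from -0.50 to 1.26 centred. DCN, a small proteoglycan and the fibroblast marker with the highest level, had 869, 1040 and 806 FPKM. Whether fibroblasts have a part in the ratios of the members was not tested.

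The subunits shared by most cell types included the gene with the highest level. ITGB1, the β partner of 12 of the α subunits measured, had 89.1 FPKM in white skin against 113 in brown and 84.3 in black and lies above 93.9% of all loci by mean FPKM. It held 45.2%, 55.5% and 54.6% of the summed FPKM of the 8 β subunits. The α subunits that can pair with it summed to 126, 153 and 101 FPKM. ITGB5, a partner of αV, had 33.8, 22.6 and 19.3 FPKM, ITGAV itself 18.4, 19.9 and 11.3, and ITGB8, another partner of αV, 2.60, 2.57 and 1.74. By FPKM black was the lowest colour in each of them, as in 56.1% of all loci. The centred ratios of white/black were -0.16 for ITGB1, 0.57 for ITGB5, 0.46 for ITGAV and 0.31 for ITGB8. Span-matched, they were -0.23, 0.29, 0.18 and 0.04, and the brown/black ratio of ITGB5 went from 0.03 to -0.24. Black was below both other colours in 2 of the 4 span-matched, beside 32.4% of all loci. The sign for ITGB1 was positive with nothing subtracted (0.08).
The 3 members under the filter were ITGA10, a collagen receptor of cartilage, with 0.688 to 0.884 FPKM, LAMA1, the embryonic laminin α chain, with 0.201 to 0.358, and LAMB4 with 0.00601 to 0.0191. They are given as levels only.

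Other basement membrane genes had in sum the same order of colours as the laminins. All 13 of the list passed the filter, with a summed FPKM of 1220 in white skin, 899 in brown and 711 in black. Of the 13, 12 had a positive centred ratio of white/black, beside 6828 of 13656 loci. The list's median was 0.37, beside 0.40 for the 8 laminins that passed. After span matching both medians were 0.18. The span-matched ratio was negative for COL4A1 (-0.03), COL4A2 (-0.12), NID2 (-0.14), COL15A1 (-0.25) and NTN4 (-0.27). NID1, the nidogen that bridges laminin and collagen IV, was past 2-fold in white/black with 13.7, 6.67 and 5.32 FPKM (centred log2 ratio 1.11, span-matched 0.91), and COL4A6, a chain of epithelial collagen IV, had 5.29, 3.89 and 1.89 (1.20 and 0.61). SPARC, a collagen-binding glycoprotein, had the highest level with 944, 669 and 535 FPKM, followed by FBLN1 with 90.6, 72.6 and 59.2. In brown/white, NID1 was the only gene of the list past 2-fold, downward, and in brown/black none was.
Integrin adaptors, which tie the receptors to actin and signalling, differed less. Of 22, 19 passed, with median centred log2 ratios of 0.05 for white/black, 0.04 for brown/white and 0.01 for brown/black. TLN2, a talin with a locus of 503267 bases, was past 2-fold in white/black with 2.73, 2.10 and 0.960 FPKM (centred 1.18, span-matched 0.58). FLNA, the filamin that binds β tails, had 116, 87.4 and 88.1 FPKM, and ILK, the kinase-like partner of β1, 59.2, 64.8 and 65.8.
The ligands held the largest ratios of the 4 partner lists. TNC, the tenascin bound by αV and α9 integrins, had 13.7 FPKM in white skin against 105 in brown and 66.3 in black, a centred log2 ratio of -2.50 for white/black and 2.96 for brown/white. THBS1, thrombospondin, had 78.6, 184 and 201 (-1.60 and 1.26). Both were low in white skin. POSTN, periostin, was high there with 1150, 649 and 396 FPKM (1.29 for white/black), as was NPNT, the nephronectin that binds α8β1 at the attachment of the arrector pili in mice, with 12.8, 6.36 and 4.57 (1.22). SPP1, osteopontin, had 139, 83.2 and 80.7 FPKM and CDH1, the E-cadherin bound by αEβ7, 116, 95.0 and 87.9. Of 20 ligands and counter-receptors 14 passed, and VTN, vitronectin, was listed at 0. None of the 14 was past 2-fold in brown/black, and the list's median ratios were 0.16, -0.34 and -0.07.

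**Figure D4:**
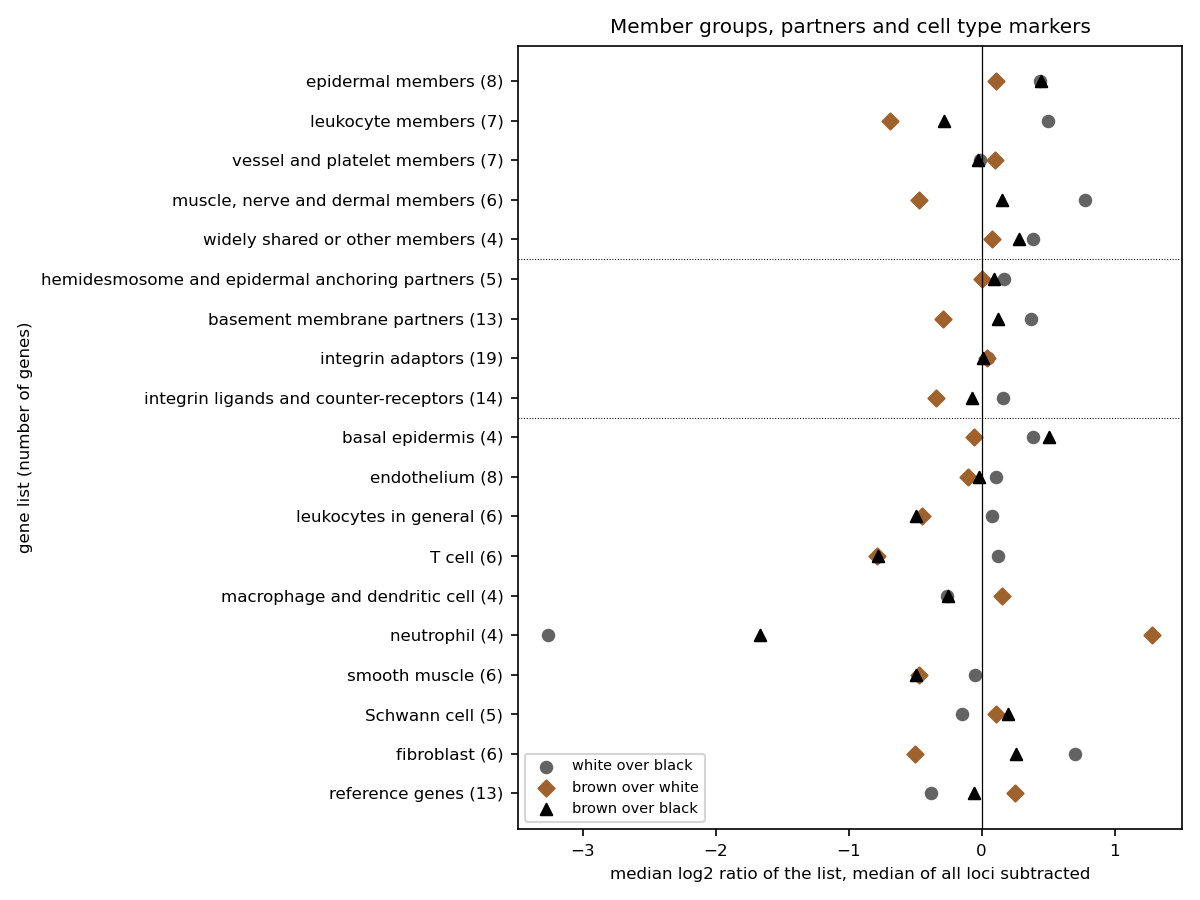
Median log2 ratio, with the median of all loci subtracted, of the 5 member groups (top), 4 partner lists (middle) and cell type marker and reference lists (bottom), with the number of genes that passed the filter in brackets. Circles are white/black, diamonds brown/white and triangles brown/black. Leukocyte members lie at 0.50, -0.69 and -0.28, vessel and platelet members near 0, and neutrophil markers at -3.26 for white/black.

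ITGA1 and ITGA2 lie 18527 bases apart on chromosome 20 and differed in proportion between colours. ITGA2 stood at 1.69 times ITGA1 in white and 1.52 times in brown, but 0.905 times in black skin. By FPKM both genes had brown as the highest colour and black as the lowest, and 56.1% of all loci were lowest in black. For ITGA1 the log2 ratio of white/black was -0.01 centred and -0.37 span-matched, so the place of black depended on the scale.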

How the data were processed

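Flank skin RNA of 6 goats was sequenced as paired reads. The authors cleaned the reads, aligned them to the NCBI goat genome with TopHat on a Bowtie index (Bowtie2 version 2 in the submitters' processing notes), and measured transcripts with Cufflinks and CuffDiff. The deposited FPKM values are the authors' own, 1 per colour over 2 goats; how libraries were scaled is not given in the sources used here. Each colour's FPKM was identical in the 2 comparisons that hold it. The table's columns of fold changes, test statistics, p-values and q-values hold the authors' own comparison and were not used, so no test was run and no precision per value is given. Depth per sample is unknown from FPKM.

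Of 26938 loci, 26749 hold 1 gene name, and 13656 of these had a mean FPKM of at least 1 and no failed estimate (4 loci failed). A pseudocount of 0.1 was added, the median of these loci was subtracted, and 2-fold was the limit. Span-matched ratios used 20 bins of locus span. All 35 members were found by symbol in a later goat annotation (RefSeq, ARS1.2), used for chromosome names only. 1 gene of the name pattern is not reported here and was left out of all counts of members. Every member is named, and of each partner list up to 3 genes past 2-fold per comparison and up to 2 others with the highest FPKM. Of the marker lists, the highest gene and those at 0 are named. FERMT3, S100A12, CXCR2, CSF3R and MMP9 were chosen after their values were seen. The members, by a name pattern, and the gene lists were chosen with earlier results of these data known. Python 3.11.15, pandas 2.3.3 and numpy 2.4.6 were used.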

Additional observations from a re-analysis of the deposited data

How the results depend on the processing

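No paired analysis was possible because each colour has 1 value over its goats, and for the same reason no goat could be left out. With nothing subtracted, 4 members were past 2-fold upward in white/black and 2 in brown/black, against 2 and 1 after centring, and the share of upward calls among all loci past 2-fold was 81.0% and 72.3%, against 59.4% and 48.9%. With the median of 13 reference genes subtracted, 7 were past 2-fold upward in white/black and 4 downward in brown/white, and upward shares were 88.6% and 17.2%, against 59.4% and 38.2%. By span-matched ratios, 0 were past 2-fold upward in either comparison with black. Under a pseudocount of 1, and also at a mean FPKM of at least 5, 1 was past it downward in brown/white and 0 upward in brown/black. Over all loci, up and down in white/black, brown/white and brown/black, the counts past 2-fold were 688 and 471, 330 and 533, and 226 and 236 after centring. With nothing subtracted they were 1233 and 289, 311 and 562, and 401 and 154. With reference genes they were 1758 and 227, 192 and 923, and 269 and 205. With a pseudocount of 1 they were 376 and 319, 201 and 355, and 116 and 137. At a mean of at least 5 they were 351 and 232, 154 and 278, and 91 and 94, and without a filter 1417 and 1111, 892 and 1280, and 747 and 841. A limit of 1.5-fold gave 9 up and 2 down in white/black, 2 up and 6 down in brown/white, and 4 up and 1 down in brown/black. Together with span matching, chosen after seeing the data, it gave 5 up and 3 down, 1 up and 6 down, and 2 up and 0 down. The members' counts were the same without a filter and without a pseudocount. No member past 2-fold reversed its sign under any alternative run, but smaller ratios did. With reference genes, 15 of the 96 member ratios and 5 of the 15 group medians changed sign. With span matching 9 and 1 did, and with nothing subtracted 10 and 2. These sign changes were counted on ratios rounded to 2 decimals, so changes to or from a ratio that rounds to 0 are left out.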
